A study of Mus musculus with 2 samples.

Results

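Cycling *Lef1*-positive cells are cells of the P3 mouse pituitary that carried transcripts of the WNT-responsive transcription factor gene *Lef1* together with transcripts of cell division. They were picked by counts of unique molecular identifiers (UMIs, each standing for 1 captured transcript molecule). A cell had to hold at least 1 *Lef1* UMI and at least 4 UMIs summed over 7 genes of G2 and mitosis, *Mki67*, *Top2a*, *Cenpf*, *Birc5*, *Ccnb1*, *Cdk1* and *Ube2c*. It also had to hold fewer than 1000 *Cga* UMIs per 1000000, at most 1 *Pou1f1* UMI and at most 2 UMIs of the collagens *Col1a1* and *Col3a1* together. Among barcodes with at least 1000 genes and at most 10% mitochondrial UMIs, 69 of 8009 in the male library met the rule, which is 0.862% (exact Clopper-Pearson 95% interval 0.671 to 1.09%). Of the 5604 female barcodes, 27 did so, 0.482% (0.318 to 0.700%). There were thus 96 cycling *Lef1*-positive cells among 13613 barcodes past these limits and 16365 deposited ones.

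The study sorted GFP-positive cells from *Sox9*iresGFP/+ pituitaries, from mice that carry GFP at 1 copy of the SC gene *Sox9*, and labelled them as stem cells. Pituitaries of 3 males and of 3 females at postnatal day 3 were each made into 1 droplet library, so a sex is represented by 1 library and both share the reporter allele. GFP outlasts SOX9 in this line, so the sorted fraction holds SCs and their recent progeny. With 1 library per sex, and with cells chosen by the values measured in them, no test was made and no p-value is given. All intervals are exact 95% intervals for counting error only, so they say nothing about how other pituitaries would vary.

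LEF1 is one of the TCF/LEF proteins that bind DNA at WNT target genes and activate them when β-catenin joins them. In the pituitary, SOX2 and SOX9 mark SCs, which divide in the first days after birth, while their progeny switch on neuroendocrine transcription factors as they leave the SC state. Of the genes in the rule, *Top2a* encodes a topoisomerase that untangles replicated DNA, *Cdk1* and *Ccnb1* encode the kinase and cyclin that drive entry into mitosis, and *Mki67* encodes the proliferation marker Ki-67. *Lef1* lies on the plus strand of chromosome 3 from base 131110471 to 131224356 of mm10.

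Both libraries carried what their labels name. The male library held 106039887 UMIs over 10569 barcodes and the female library 62897759 over 5796. *Xist* was at 0.426 counts per 1000000 UMIs (CPM) in male and 639 in female barcodes. *Eif2s3y*, on the Y chromosome, was at 54.8 CPM against 0 UMIs, where 3 counts would be 0.0479 CPM. eGFP was at 21.2 CPM (interval 15.1 to 28.9) in male and 19.1 (10.1 to 32.6) in female cycling *Lef1*-positive cells. In non-cycling *Lef1*-positive cells it was at 6.96 (5.6 to 8.55) and 4.51 (3.29 to 6.04). Cycling cells with *Sox2* but no *Lef1* UMI were at 22.3 (20.2 to 24.4) and 15.7 (13.2 to 18.4). Those intervals overlapped the ones of cycling *Lef1*-positive cells in both libraries. The libraries shared 19 barcodes, none of them of a cycling *Lef1*-positive cell.

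The rule's own values showed how thin the *Lef1* mark was. Of the 96 cells, 65 held a single *Lef1* UMI and 31 held 2 or more, with a highest count of 6. The sum over the 7 cycling genes ran from 4 through a median of 24 to 276 in the 69 male cells and from 4 through 12 to 337 in the 27 female cells. At the lower limit, 9 male and 4 female cells stood just inside with a sum of 4, and 5 male and 5 female cells just outside with a sum of 3. The neuroendocrine gene *Hes6* was at 373 CPM (281 to 486) in the male cells just inside and 551 (414 to 719) in those just outside. The female values were 520 (383 to 689) and 520 (394 to 674). *Sox2* was not required of these cells, yet all 96 held it, with 1 to 52 UMIs in male and 1 to 29 in female cells.

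Few *Lef1*-positive cells cycled. By the same rule and limits, 5.55% (4.34 to 6.97%) of 1243 male and 2.84% (1.88 to 4.11%) of 950 female *Lef1*-positive cells had a cycling sum of at least 4. Among cells with *Sox2* but without a *Lef1* UMI, under those limits, the shares were 23.2% (21.8 to 24.6%) of 3564 and 15.6% (14.5 to 16.8%) of 3709. The share was thus 4.18 times as high without *Lef1* in the male and 5.49 times as high in the female library, and the intervals did not overlap in either library. *Lef1*-positive cells were the deeper class, with a median of 13420 UMIs in male and 12176 in female cells against 10191 and 9249. When every cell was drawn down to 5000 UMIs, the cycling shares were 1.78% (0.953 to 3.03%) of 729 and 0.813% (0.264 to 1.89%) of 615 *Lef1*-positive cells. Those of *Lef1*-zero cells were 16.9% (15.6 to 18.2%) of 3320 and 11.8% (10.8 to 12.9%) of 3648, so that the ratios were 9.48 and 14.5. The drawing left out 1229 male and 180 female barcodes with fewer than 5000 UMIs.

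**Figure D1:**
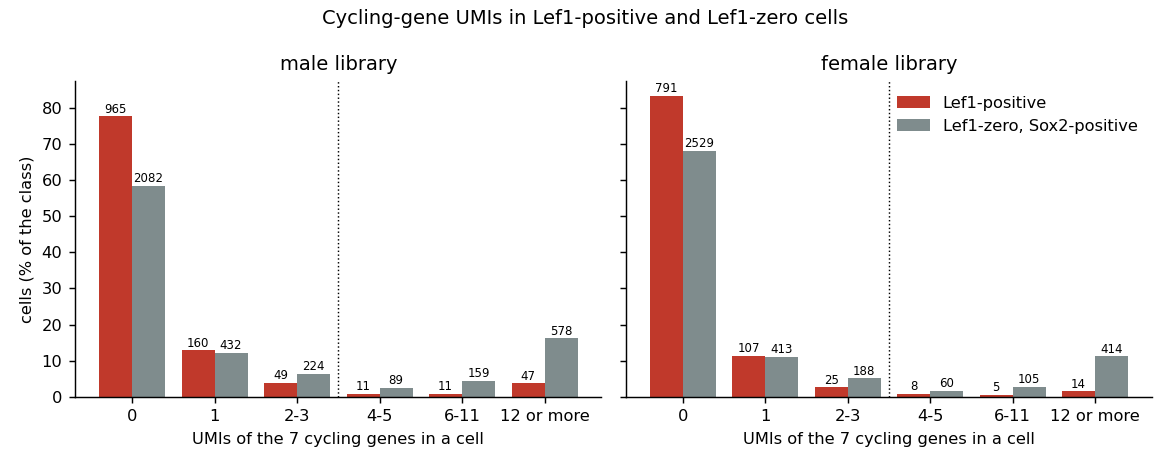
Share of cells (y axis, percent of the class) by the UMIs they held of the 7 cycling genes (x axis), for *Lef1*-positive (red) and *Lef1*-zero *Sox2*-positive cells (grey) of each library. Numbers over the bars are cells and the dotted line is the limit of the rule. Sums of 12 or more were found in 47 male and 14 female *Lef1*-positive cells, against 578 and 414 *Lef1*-zero cells.

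As the plot of cycling sums shows, the cycling *Lef1*-positive cells were not only cells near the limit. Sums of 12 or more were found in 47 of 69 male and 14 of 27 female cells. The other 22 male and 13 female cells had sums of 4 to 11. In the low group the G2 and mitosis genes outside the rule were summed at 394 CPM (335 to 461) in the male and 425 (357 to 503) in the female library. In the high group they were at 3815 (3716 to 3915) and 4464 (4248 to 4688). S-phase genes were nearer to each other, at 2051 (1913 to 2196) and 1884 (1737 to 2040) CPM in the low and 2264 (2188 to 2342) and 2389 (2232 to 2554) in the high group.

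The cycling *Lef1*-positive cells were deep. Male cells held from 2313 through a median of 23648 to 74804 UMIs, and female cells from 6173 through 24847 to 51325. Cycling *Lef1*-zero cells, the 987 male and 590 female barcodes with no *Lef1* UMI, at least 1 *Sox2* UMI and the same cycling sum, had medians of 16655 and 13598.5. Non-cycling *Lef1*-positive cells, which met the rule but for a cycling sum of 0, numbered 965 and 791 and had medians of 13058 and 11970. The median cycling *Lef1*-positive cell therefore held 1.42 times the UMIs of a cycling *Lef1*-zero cell in the male and 1.83 times in the female library.

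They also scored high as possible doublets, barcodes that hold more than 1 cell. Scrublet compares each barcode with simulated sums of 2 barcodes, and the highest-scoring 8.46% of male and 4.64% of female barcodes were marked. Of the cycling *Lef1*-positive cells, 24 of 69 male (34.8%, 23.7 to 47.2%) and 13 of 27 female cells (48.1%, 28.7 to 68.1%) were marked. In cycling *Lef1*-zero cells the shares were 9.02% (7.30 to 11%) and 10.5% (8.15 to 13.3%), and in non-cycling *Lef1*-positive cells 5.6% (4.23 to 7.24%) and 4.55% (3.21 to 6.25%). That left 59 unmarked cells, 45 male and 14 female, of which 15 held 2 or more *Lef1* UMIs. Unmarked cells were still deep, with medians of 21795 and 20491 UMIs. Whether a barcode held 1 cell or 2 cannot be told apart from these counts, so values without the marked barcodes are given beside the gene groups below, and for named genes whose reading differs without them.

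**Figure D2:**
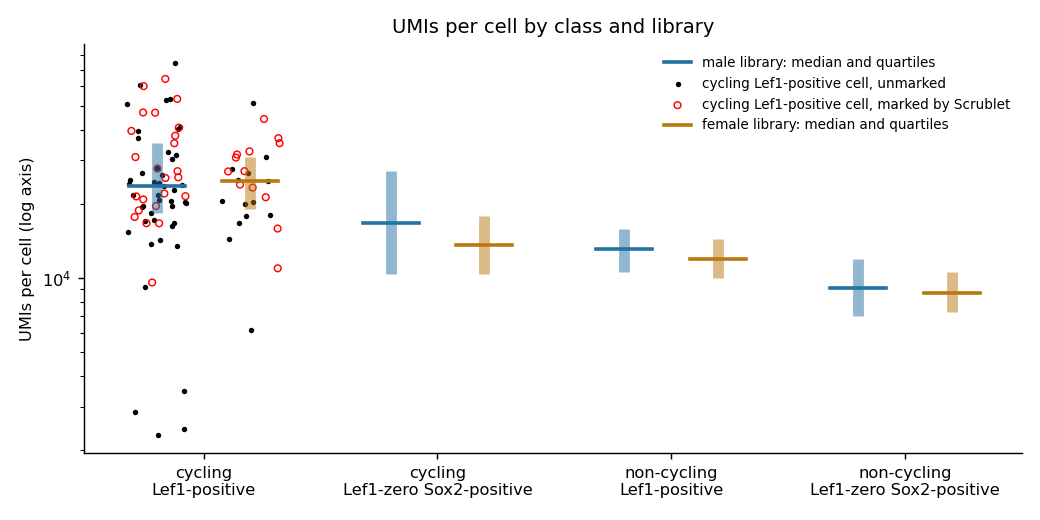
UMIs per cell (y axis, log scale) in the 4 classes of each library (male blue, female ochre), with the median as a line and the quartiles as a bar. Points are single cycling *Lef1*-positive cells, black where unmarked and as red rings where marked by Scrublet, and most of them lie above the upper quartile of the non-cycling classes.

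*Lef1* itself was seen in a larger share of deep than of shallow cycling cells. Among cycling *Sox2*-positive cells under the limits of the rule, 7.71% (6.05 to 9.66%) of 895 male and 4.46% (2.96 to 6.42%) of 606 female cells held a *Lef1* UMI. With 20000 or more UMIs the shares were 12% (8.93 to 15.7%) of 383 and 16.0% (10.1 to 23.6%) of 125. With 10000 to 20000 UMIs they were 4.80% (2.82 to 7.58%) and 1.69% (0.624 to 3.65%) of 354 cells in either library. As cells that should carry little *Lef1*, mesenchymal cells held a *Lef1* UMI in 2.06% (1.03 to 3.66%) of 533 male and 1.36% (0.372 to 3.45%) of 294 female cells, at median depths of 8134 and 7818 UMIs. Melanotrophs did so in 2.03% (0.556 to 5.12%) of 197 and 2.86% (0.593 to 8.12%) of 105, at medians of 23520 and 16278. From 20000 UMIs melanotrophs were at 3.51% (0.964 to 8.74%) of 114 male and 9.09% (1.92 to 24.3%) of 33 female cells. The male cycling share in that range had an interval above that of melanotrophs, whereas the female intervals overlapped. Between 10000 and 20000 UMIs the female share was 1.69%, against 5.41% (1.49 to 13.3%) of 74 mesenchymal cells and 0 of 65 melanotrophs (0 to 5.52%). The male share there was 4.80%, against 2.74% (0.751 to 6.87%) of 146 mesenchymal cells and 0 of 56 melanotrophs (0 to 6.38%). Intervals overlapped in both libraries, so neither cycling share in that range was distinguishable from these levels. Non-cycling *Sox2*-positive cells, in contrast, held *Lef1* in 30.3% of 2988 and 22.9% of 3280 cells.

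**Figure D3:**
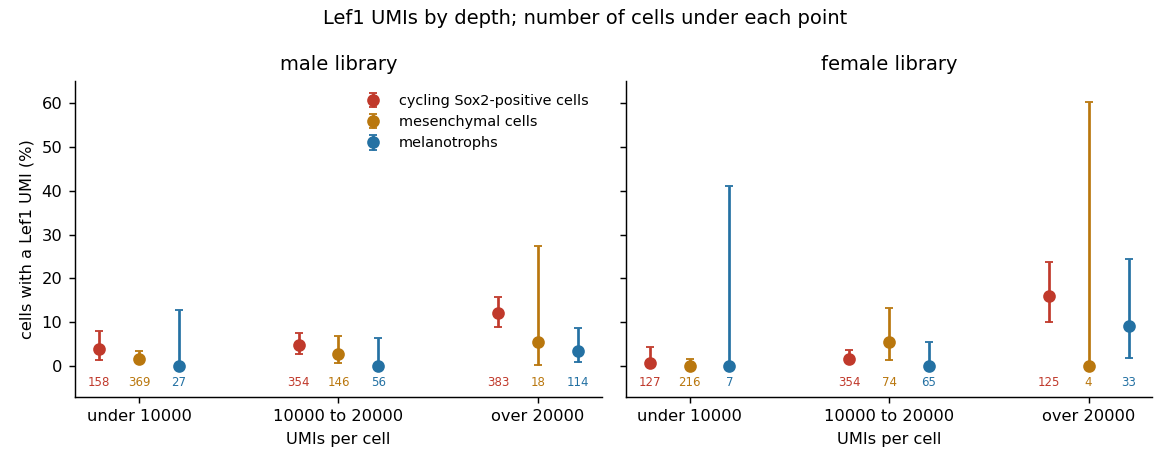
Share of cells with a *Lef1* UMI (y axis, percent, with exact 95% intervals) by UMIs per cell (x axis) in cycling *Sox2*-positive cells (red), mesenchymal cells (ochre) and melanotrophs (blue). The number under each point is its number of cells. Cycling cells were at 12% and 16.0% from 20000 UMIs, where only 18 male and 4 female mesenchymal cells lay.

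The genes of early differentiation were higher in cycling *Lef1*-positive than in cycling *Lef1*-zero cells. A level is the UMI sum of all cells in the class, scaled to 1000000 (CPM). Over all genes with at least 20 CPM in 1 of these classes in each library, 39 of 6160 were at least 2-fold higher in both libraries, which is 0.633%, and 7 were at least 2-fold lower, 0.114%. Ratios were above 1 in both libraries for 32.2% and below 1 in both for 34.5% of the 6160 genes, and intervals were above 1 in both for 5.02% and below 1 in both for 6.62%. Of a list of 15 differentiation genes, 11 reached this minimum, and 6 of the 11 were at least 2-fold higher. All 11 had ratios above 1 with intervals above 1 in both libraries, and the median ratios were 2.27 for male and 3.96 for female cells, where the medians over all genes compared were 1.0 and 0.982. The study named genes of this list from these same libraries, and *Lef1* marks the same progeny, so that these counts are a description and not independent evidence of a direction.

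*Hes6*, an inhibitor of HES1 that favours neuronal and neuroendocrine differentiation, was at 89.5 CPM (85.4 to 93.8) in cycling *Lef1*-zero cells, 348 (321 to 375) in cycling *Lef1*-positive cells and 1379 (1359 to 1399) in non-cycling *Lef1*-positive cells of the male library. The female values were 59.6 (54.7 to 64.7), 327 (285 to 373) and 967 (948 to 986). The cells therefore stood 3.88-fold (3.54 to 4.25) and 5.49-fold (4.68 to 6.43) above the cycling *Lef1*-zero class and well below the non-cycling *Lef1*-positive one. A *Hes6* UMI was found in 62 of 69 male and 26 of 27 female cells, with medians of 4 and 6 UMIs and highest counts of 65 and 25. Without the marked barcodes the ratios were 2.57 (2.22 to 2.97) and 4.62 (3.6 to 5.87).

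*Gadd45g*, a stress and growth-arrest gene that proneural factors switch on, was at 89.0, 235 and 926 CPM in the same 3 male classes and at 70.3, 279 and 657 in the female ones. Its ratios of 2.64 (2.38 to 2.93) and 3.96 (3.36 to 4.67) were 1.18 (0.966 to 1.44) and 2.28 (1.64 to 3.10) without the marked barcodes, so the male interval then held 1. Within the cycling *Lef1*-positive cells it was at 95.5 CPM (78.4 to 115) in the 45 unmarked and 449 (402 to 500) in the 24 marked male cells. The female values were 140 (102 to 188) in 14 and 402 (339 to 473) in 13 cells. Marked cells were thus higher in *Gadd45g* in both libraries, with intervals that did not overlap.

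*Smoc2*, which encodes a secreted calcium-binding matrix protein, had the largest ratio of any gene outside the rule in either library among the 39. It was at 4.22 CPM in male and 3.03 in female cycling *Lef1*-zero cells, against 63.6 (120 UMIs) and 106 (72 UMIs) in cycling *Lef1*-positive cells, a ratio of 15.1 (11.3 to 20.2) and 34.9 (22.3 to 56.1). Without marked barcodes the ratios were 10.2 (6.40 to 16.1) and 38.3 (18.3 to 83.2). A *Smoc2* UMI was held by 26 of 69 male and 15 of 27 female cells. *Mycl*, a MYC family gene, was 3.38-fold (2.78 to 4.09) and 5.77-fold (4.31 to 7.66) above the cycling *Lef1*-zero class, and the NOTCH ligand gene *Dll1* was 2.27-fold (1.67 to 3.04) and 4.36-fold (2.91 to 6.40) above it. For *Dll1* the ratio in unmarked male cells was 1.59 with an interval of 0.974 to 2.47, which held 1.

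The other listed differentiation genes stood at smaller ratios. *Sox4* and *Sox11*, SOX factor genes of immature neuroendocrine cells, were at 659 and 257 CPM in male cells, 1.35 (1.28 to 1.44) and 1.33 (1.21 to 1.47) times the cycling *Lef1*-zero level. In female cells the ratios were 1.42 (1.29 to 1.56) and 1.49 (1.26 to 1.74). *Insm1*, a zinc-finger factor gene of endocrine cells, was at 1.74 (1.45 to 2.08) and 2.67 (2.09 to 3.39) times, and at 1.65 (1.27 to 2.11) and 1.5 (0.915 to 2.33) times without marked barcodes. *Scx*, *Pou3f4*, *C1ql2* and *Shh* did not reach 20 CPM in both libraries. *Pou3f4* was at 18 CPM in male and 52.8 in female cycling *Lef1*-positive cells, and at 9.64 and 15.6 in the unmarked ones. Unmarked cycling *Lef1*-zero cells held *Pou3f4* at 3.21 and 2.37 CPM. The unmarked ratios were 3.00 (1.42 to 5.80) and 6.58 (1.91 to 18.4), from 11 and 5 UMIs. *Shh* was counted in 5 and 1 UMIs. When marked barcodes were left out, 10 differentiation genes were compared, all 10 had ratios above 1 in both libraries, 7 had intervals above 1 in both, and 4 were at least 2-fold higher, among them *Hes6*, *Mycl* and *Smoc2*.

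**Figure D4:**
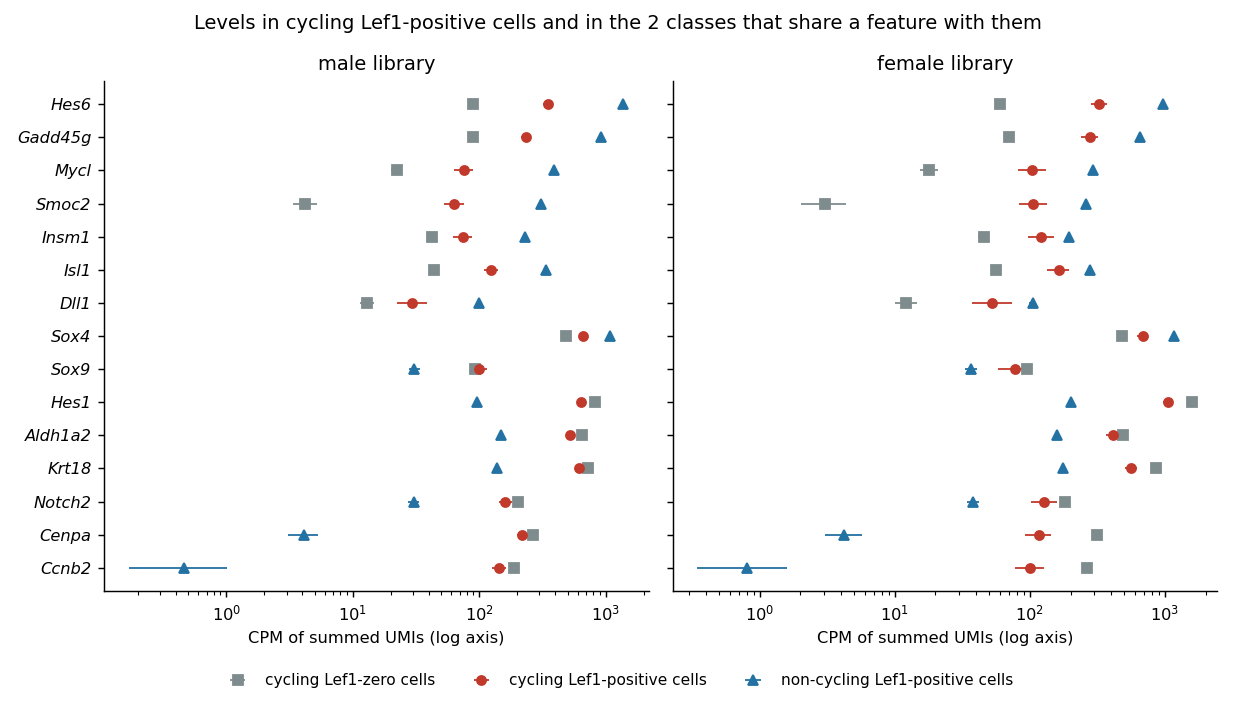
Levels of 15 genes (x axis, CPM of summed UMIs, log scale, with exact Poisson 95% intervals) in cycling *Lef1*-zero cells (grey squares), cycling *Lef1*-positive cells (red circles) and non-cycling *Lef1*-positive cells (blue triangles). *Hes6* in the male library reads 89.5, 348 and 1379 CPM in that order, and the red circle lies between the other classes for every gene drawn except *Sox9* in the male library. The 15 genes were picked from the lists, so the plot does not show how often other genes lay between.

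Cycling *Lef1*-positive cells lay between the classes that share 1 of their features. Of the 38 genes outside the rule that were at least 2-fold higher than in cycling *Lef1*-zero cells, all 38 were below their level in non-cycling *Lef1*-positive cells in both libraries, and for 36 both intervals lay below 1. The ratio to that class ran from 0.167 to 0.568 in the male and from 0.279 to 0.909 in the female library. Besides *Smoc2*, the leading genes were *Pdzrn4*, *Col16a1*, *Rbm24*, *Pex5l*, *Barx2*, *Grp*, *Slco3a1* and *Gch1*. *Col16a1*, a fibril-associated collagen gene, was at 5.73, 52.5 and 315 CPM in the 3 male classes and at 2.81, 96.8 and 274 in the female ones. *Grp*, which encodes gastrin-releasing peptide, was at 3.47, 20.7 and 68.2 and at 2.05, 22.0 and 60.2. *Gch1*, the first enzyme of tetrahydrobiopterin synthesis, was at 7.49, 35.0 and 108 and at 6.81, 32.3 and 85.3. Every one of these named genes had the order of cycling *Lef1*-zero lowest and non-cycling *Lef1*-positive highest. Without marked barcodes 15 genes were at least 2-fold higher, of which 14 were among the 39. The *Grp* ratios were then 4.71 (2.51 to 8.39) and 3.16 (0.350 to 13.6), from 16 and 2 UMIs, against 5.96 and 10.7 with all barcodes. For *Col16a1* the male ratio was 5.07 (3.18 to 7.86) against 9.16, and for *Gch1* it was 2.90 (1.77 to 4.56) against 4.67.

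The same position was measured over genes that set the other classes apart. Outside the rule, 299 genes were at least 2-fold higher in non-cycling *Lef1*-positive than in cycling *Lef1*-zero cells in both libraries. For 273 of them (91.3%) the cycling *Lef1*-positive level lay between the 2 classes in both libraries. On the linear scale from the cycling *Lef1*-zero level (0%) to the non-cycling *Lef1*-positive level (100%), the median gene stood at 21.6% (quartiles 14.8 to 28.8%) in the male and 38.0% (26.7 to 51.2%) in the female library. For the 822 genes that were at least 2-fold higher in cycling *Lef1*-zero cells, 696 (84.7%) lay between, and the medians were 24.2% (13 to 34.3%) and 42.8% (27.6 to 55.4%). With all barcodes, genes of either direction thus gave nearly the same position within a library. Without the marked barcodes, a setting added after seeing the data, 228 of the 299 (76.3%) and 539 of the 822 genes (65.6%) lay between. The medians of the 299 were then 12.3% (6.28 to 21.9%) and 26.3% (10.5 to 43.3%), nearer to cycling *Lef1*-zero cells in both libraries. Those of the 822 were 15.5% (0.560 to 29.6%) and 38.9% (17.6 to 54.4%). In the female library the medians of the 2 directions, 26.3% and 38.9%, were then further apart than with all barcodes.

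Only 1 of 6559 genes (0.0152%) was at least 1.5-fold above both classes in both libraries. It was *Vcan*, the gene of the matrix proteoglycan versican, at 37.6 CPM in male and 27.9 in female cells. In cycling *Lef1*-zero cells it was at 24.8 and 17.9, and in non-cycling *Lef1*-positive cells at 17.9 and 18.6. Non-cycling cells with *Sox2* and no *Lef1* UMI, under the limits of the rule, were nearer, at 32.1 (29.7 to 34.5) and 22.4 (20.5 to 24.3). Their intervals overlapped those of the cycling *Lef1*-positive cells in both libraries. The female ratio of 1.55 to cycling *Lef1*-zero cells had an interval of 0.912 to 2.5, which held 1. Without the marked barcodes 7 genes met this limit, *Vcan*, *Rara*, *Rccd1*, *Sav1*, *Slc39a6*, *Pcnx3* and a feature named *Zfp865*. The female level of each rested on 8 to 15 UMIs, and those names were read after their values were seen. *Rara*, which encodes a retinoic acid receptor, was then 1.63-fold (1.19 to 2.17) and 1.91-fold (1.05 to 3.23) above cycling *Lef1*-zero cells.

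Most SC genes were below their level in cycling *Lef1*-zero cells. Of 15 listed, 11 were compared, none was 2-fold apart, 8 were lower in both libraries (34.5% of all genes compared), and 6 had intervals below 1 in both (6.62% of all). The median ratios were 0.830 and 0.717. Without marked barcodes 7 were lower and 3 had intervals below 1 in both, with medians of 0.835 and 0.816. *Sox2* was at 608 CPM (573 to 644) in male and 561 (507 to 621) in female cells, with ratios of 1.06 (1.0 to 1.13) and 0.793 (0.713 to 0.879), and *Sox9* at 99.1 and 77.7 CPM, with ratios of 1.07 (0.913 to 1.24) and 0.814 (0.605 to 1.08). Summed, the list was at 2909 and 3117 CPM, against 995 and 1269 in non-cycling *Lef1*-positive cells, where *Sox9* was at 30.6 and 36.5. *Hes1*, the NOTCH target that represses proneural genes, was at 831, 637 and 96.3 CPM in cycling *Lef1*-zero, cycling *Lef1*-positive and non-cycling *Lef1*-positive male cells and at 1575, 1045 and 201 in female cells. *Ednrb*, an endothelin receptor gene, had the lowest female ratio of the list, 0.311 (0.211 to 0.444), with 0.693 (0.551 to 0.863) in the male library, where the interval held 1 without marked barcodes (0.611 to 1.04).

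Genes of the cell cycle that the rule did not use were lower than in cycling *Lef1*-zero cells. Of 30 further genes of G2 and mitosis 28 were compared, all 28 had ratios below 1 in both libraries, against 34.5% of all genes compared, and 23 had intervals below 1 in both, against 6.62%. The medians were 0.763 and 0.481. The rule sets a fixed minimum of cycling UMIs, whatever the depth of a cell. Cycling *Lef1*-positive cells held 1.42 (male) and 1.83 (female) times the median UMIs of cycling *Lef1*-zero cells. The same count is therefore a lower CPM in them. The 7 genes of the rule were also lower in both libraries, with medians of 0.759 and 0.514. How much of the lower levels came from this minimum was not tested. *Ccnb2*, a mitotic cyclin gene, was at 144 CPM in male and 99.7 in female cells against 189 and 262, and the centromere gene *Cenpa* at 219 and 116 against 268 and 313. Of 30 S-phase genes all were compared, 26 were lower in both libraries and 16 had intervals below 1 in both, with medians of 0.793 and 0.664. The replication clamp gene *Pcna* was at 71.5 and 83.6 CPM against 103 and 127. Cycling genes and SC genes were thus both lower where the differentiation genes were higher.

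Without the marked barcodes the cell-cycle ratios were nearer to 1 in the male library. Then 22 of the 28 genes of G2 and mitosis were lower in both libraries and 6 had intervals below 1 in both, with medians of 0.902 and 0.576. *Cenpa* was then at 1.0 (0.895 to 1.12) times in the male library. Of the S-phase genes 21 were lower in both and 3 had intervals below 1 in both, with medians of 0.812 and 0.703. The unmarked male cells held *Mki67* at 365 CPM (331 to 402) and the marked ones at 130 (105 to 159), and for *Top2a* the values were 447 (409 to 488) and 210 (179 to 246). These 2 genes belong to the rule and are given only to show that unmarked and marked male cells differed.

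The balance of phases differed little in the male and more in the female library. Per UMI of the G2 and mitosis list, cycling *Lef1*-positive cells held 0.718 (male) and 0.841 (female) S-phase UMIs, against 0.682 and 0.567 in cycling *Lef1*-zero cells. More G2 and mitosis than S-phase UMIs were found in 33 of 69 male (47.8%) and 10 of 27 female cells (37.0%). In cycling *Lef1*-zero cells the shares were 51.9% and 55.1%. Phase was read from these counts only, and depth differed between the classes.

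**Figure D5:**
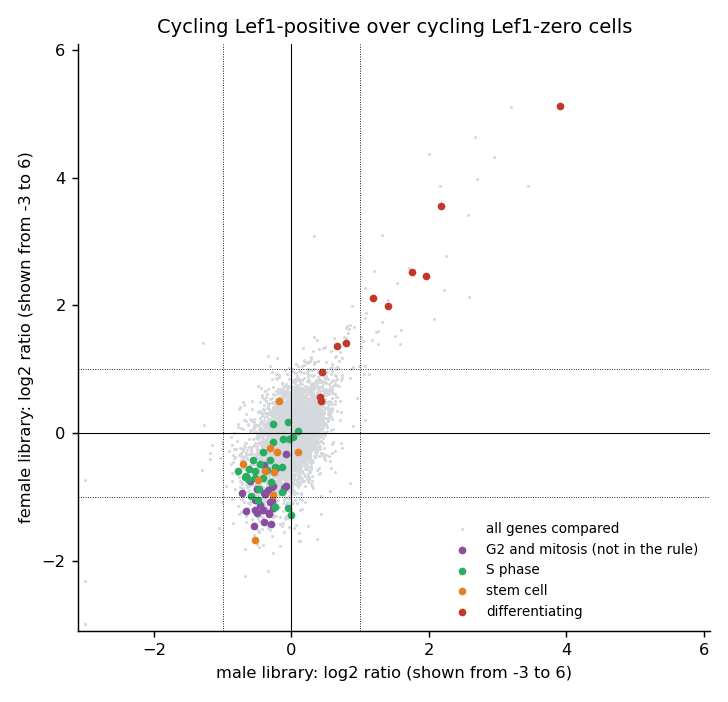
Log2 ratio of cycling *Lef1*-positive to cycling *Lef1*-zero cells in the male (x axis) and female library (y axis). Grey points are all genes compared outside the rule, and coloured points are 4 gene lists. Dotted lines mark 2-fold, and values beyond the axes are drawn at their ends. The 11 differentiation genes lie above 0 in both libraries and the 28 genes of G2 and mitosis below 0 in both.

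WNT response genes, the class in which LEF1 acts, were mostly near the level of cycling *Lef1*-zero cells. Of 17 listed genes 8 were compared, and none was 2-fold apart in both libraries. Ratios of 4 were above 1 in both (32.2% of all genes compared), and 2 of these had intervals above 1 in both (5.02% of all). They were *Lgr4*, an R-spondin receptor gene, at 1.39 (1.19 to 1.62) and 1.55 (1.19 to 1.99), and the co-repressor gene *Tle1*, at 1.51 (1.24 to 1.82) and 1.55 (1.05 to 2.21). Their intervals also lay above 1 without marked barcodes, with lower ends of 1.0 for *Lgr4* in the male and *Tle1* in the female library. *Axin2*, a feedback inhibitor and WNT target, was at 22.8 CPM in male and 32.3 in female cells, with ratios of 1.22 (0.867 to 1.67) and 2.28 (1.38 to 3.6). Without marked barcodes these were 1.56 (1.05 to 2.25) and 1.33 (0.477 to 2.99), so the library whose interval held 1 was then the female one. *Sp5*, another WNT target, was under the minimum level with 10 and 4 UMIs. The genes of β-catenin (*Ctnnb1*) and *Tcf7l2* had intervals that held 1 in both libraries.

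NOTCH genes included both higher and lower members. Of 17 listed, 9 were compared, and 2 were at least 2-fold higher, *Dll1* and *Hes6* (0.633% of all genes compared). Another 4 had intervals below 1 in both libraries (6.62% of all). These 4 were *Hes1*, *Hey1* and *Nrarp*, targets of the pathway, and the receptor gene *Notch2*. *Notch2* was at 161 and 128 CPM, with ratios of 0.797 (0.707 to 0.895) and 0.706 (0.562 to 0.876), and *Nrarp* at 36.0 and 30.8 CPM, with 0.682 (0.525 to 0.871) and 0.617 (0.378 to 0.954). Without marked barcodes 7 were compared, and *Hes1* and *Hey1* had intervals below 1 in both libraries. The female intervals of *Notch2* (0.585 to 1.09) and *Nrarp* (0.293 to 1.15) then held 1, as did the male one of *Dll1*. Of the 9 hedgehog pathway genes only *Ptch1* and *Smo* were compared, and their intervals held 1 in both libraries.

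Growth-arrest genes were mixed. Of 14 listed, 11 were compared, 4 had intervals above 1 and 2 below 1 in both libraries, against 5.02% and 6.62% of all genes compared. Besides *Gadd45g*, the higher ones were *Cdkn1a*, which encodes p21, at 1.36 (1.04 to 1.75) and 1.93 (1.40 to 2.62), *Cdkn1c*, which encodes p57, at 1.27 (1.19 to 1.36) and 1.71 (1.55 to 1.89), and the antiproliferative gene *Btg2*, at 1.12 (1.07 to 1.16) and 1.55 (1.47 to 1.64). *Cdkn1c* was at 393, 500 and 1037 CPM over the 3 male classes, with cycling *Lef1*-positive cells in the middle again. The lower ones were *Cdkn2c* and *Cdkn2d*, which encode INK4 inhibitors, at 0.731 and 0.451 and at 0.695 and 0.522. Without marked barcodes 3 intervals were above 1 in both, those of *Cdkn1a*, *Cdkn1c* and *Btg2*, and 0 were below. The *Cdkn2c* interval then held 1 in the male library (0.654 to 1.05) and the *Cdkn2d* interval in both. Of 16 genes of G1 cyclins, kinases and E2F factors 10 were compared. *Mycn* was the 1 higher in both, at 2.25 (1.57 to 3.15) and 2.74 (1.61 to 4.46), while *Ccnd3* and *Cdk6* had intervals below 1 in both. Without marked barcodes no gene of this list had an interval on 1 side of 1 in both libraries, and the female *Mycn* ratio was 2.0 (0.779 to 4.30), from 7 UMIs.

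Pituitary homeodomain genes were present in these cells. *Pitx1*, *Lhx3* and *Six6* were all between 129 and 418 CPM in male cells, and 6 of the 9 listed were compared. *Isl1*, a LIM homeodomain gene of early endocrine cells and gonadotrophs, was 2.84-fold (2.45 to 3.29) and 2.88-fold (2.32 to 3.54) higher, at 125 and 163 CPM. Without marked barcodes its ratios were 1.53 (1.18 to 1.96) and 1.74 (1.17 to 2.51). *Pitx1* had ratios of 1.18 (1.07 to 1.31) and 1.45 (1.24 to 1.69), and without marked barcodes the male interval held 1 (0.957 to 1.25).

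Apart from *Cga*, a hormone subunit gene, gonadotroph hormone genes were scarce. The rule limits *Cga*, so cells rich in it were left out beforehand, and this scarcity is not independent of the rule. *Cga* had 174 male and 52 female UMIs. Against cycling *Lef1*-zero cells under the same limits its ratios were 3.88 (3.23 to 4.65) and 9.15 (6.30 to 13.2). Without marked barcodes, and with the comparison cells not so limited, they were 0.330 (0.245 to 0.436) and 2.65 (1.56 to 4.26). The gonadotroph genes *Gnrhr* and *Fshb* had no UMI in any of the 96 cells, and *Lhb* had 1, where 3 counts would be 1.59 CPM for the male and 4.40 CPM for the female cells. *Foxl2*, a factor gene of gonadotrophs and thyrotrophs, was at 32.3 CPM in male and 13.2 in female cells, against 5.18 and 0.648 in cycling *Lef1*-zero cells. All 9 female *Foxl2* UMIs were in marked barcodes. Unmarked male cells were at 13.1 CPM, from 15 UMIs, against 2.28 in unmarked cycling *Lef1*-zero cells, a ratio of 5.77 (2.96 to 10.7). *Neurod1*, a bHLH factor gene of early endocrine cells, was at 50.3 CPM (40.7 to 61.5) in male cells, where 11 of 69 cells held it and 2 of them held 28 and 31 of its 95 UMIs. In the female library 1 cell held 1 UMI. Both of these male cells were marked by Scrublet, and the unmarked male cells held 12 UMIs, at 10.5 CPM, with a ratio of 1.67 (0.836 to 3.04).

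*Pomc*, the hormone gene of melanotrophs and corticotrophs, was at 689 CPM in male and 96.8 in female cells against 8076 and 1454 in cycling *Lef1*-zero cells, ratios of 0.0853 (0.0807 to 0.0901) and 0.0665 (0.0514 to 0.0847). One male cell held 889 of the 1300 *Pomc* UMIs of its class, and without that cell the male level was 223 CPM. The median cell did not share the gap, with 3 UMIs in male and 1 in female cells against 2 and 0. Single cells of the comparison class held up to 22943 (male) and 10115 (female) *Pomc* UMIs. Without marked barcodes the ratios were 0.131 (0.123 to 0.139) and 0.0942 (0.0705 to 0.123). *Dcn*, *Col1a2* and *Sparc*, matrix genes, and *Erbb4*, a receptor kinase gene, were the other genes at least 2-fold lower outside the rule. The comparison class carried no limit on collagen, and when it was held to the limits of the rule (826 male and 579 female cells), 3 genes were at least 2-fold lower, of which *Pomc* and *Erbb4* were among the 7, and *Dcn* was at 1.55 and 2.64 times its level. Without marked barcodes 5 genes were lower and *Pomc* was the only 1 of them among the 7.

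Markers of other cell types were low. The 8 mesenchymal genes summed to 12.7 CPM in male and 10.3 in female cells, of which *Lum*, *Pdgfra* and *Pdgfrb* were at 0 in both, while cycling *Lef1*-zero cells were at 148 and 133. The rule limits 2 of these genes in cycling *Lef1*-positive cells, and the cycling *Lef1*-zero class carries no such limit. This gap is therefore not independent of the rule. *Dcn*, among the 8, was above its level in cycling *Lef1*-zero cells once these were held to the limits. Non-cycling *Lef1*-positive cells, held to the same limits, were at 9.97 and 6.32 CPM. No UMI of the 5 immune genes was found, and 1 UMI of the 5 endothelial and 2 of the 5 erythroid genes. The 5 pituicyte genes summed to 25.4 and 33.7 CPM, mostly *Slc1a3*, against 35.9 and 40.1 in cycling *Lef1*-zero cells.

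Male cells with more than 1 *Lef1* UMI were higher in *Hes6*, *Pou3f4* and *Gadd45g*. In the male library *Hes6* was at 298 CPM (270 to 329) in the 51 cells with 1 and at 467 (412 to 527) in the 18 cells with 2 or more. In the female library it was at 319 (258 to 390) in 14 and 333 (278 to 396) in 13 cells. *Pou3f4*, a POU factor gene, was at 8.99 CPM (4.65 to 15.7) and 39.8 (24.9 to 60.3) in the male and at 40.3 (20.8 to 70.5) and 62.4 (40.0 to 92.8) in the female cells. *Gadd45g* was at 206 (182 to 232) and 306 (261 to 356) in the male and at 279 (222 to 346) and 278 (228 to 336) in the female cells. The male intervals of all 3 genes lay apart and the female ones overlapped. Scrublet marked 15 of 51 and 9 of 18 of these male cells, and 6 of 14 and 7 of 13 of the female ones.

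The cells with the fewest cycling UMIs were highest in the differentiation list. With sums of 4 to 11 the list was at 2485 CPM (2333 to 2645) in the male and 2530 (2359 to 2710) in the female library, and with sums of 12 or more at 1898 (1829 to 1970) and 2194 (2044 to 2353). *Hes6* was at 454 (391 to 525) and 397 (332 to 472) in the first group and 319 (291 to 349) and 264 (214 to 323) in the second. Both groups were above the 1043 and 947 CPM of the list in cycling *Lef1*-zero cells and below the 5886 and 4998 of non-cycling *Lef1*-positive cells. Scrublet marked 9 of 22 and 15 of 47 of these male cells and 6 of 13 and 7 of 14 of the female ones. The part of the marked barcodes and of depth in these levels was not tested.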

How the data were processed

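The deposited files hold raw UMI counts per gene and barcode of 31055 features, made by the authors with Cell Ranger 3.0.2 and STAR against mm10 with the eGFP sequence added. The labels and methods name different kit chemistries, so none is given here. The submitters' notes also name R 3.6.0 and Seurat versions 3 and 4, whose output was not used here.

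From the counts, barcodes with at least 1000 genes and at most 10% mitochondrial UMIs were kept, and 4 classes were built in each library by the limits given in the report. CPM are UMIs summed over a class per 1000000, with exact Poisson intervals, and ratios carry exact conditional binomial intervals. Shares have Clopper-Pearson intervals at 95%. Thinning drew cells to 5000 UMIs (seed 1). Mesenchymal cells had at least 10 UMIs of *Col1a1* and *Col3a1* and none of *Sox2*, and melanotrophs at least 1 *Pax7* UMI and over 10000 *Pomc* UMIs per 1000000. Scrublet was run in scanpy 1.11.5 with 2 simulated doublets per barcode, and 0.8% of barcodes were marked per 1000 deposited. No barcode was removed in the values first given. The male classes used here held 69 to 2082 cells and the female ones 27 to 2529, so precision was set by the cycling *Lef1*-positive cells, with 1887432 and 682115 UMIs. Calls needed 2-fold, or 1.5-fold above both classes, in both libraries. Scripts ran in Python 3.11.15 with numpy 2.4.6, scipy 1.17.1 and pandas 2.3.3 and were tested on simulated data.

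The cells, the 19 gene lists and the comparisons were chosen with earlier results of these data known. Named genes are those of the lists and up to 10 leading genes each way, and above both classes, among the genes called. Gene positions are from GENCODE vM21. Some listed genes are counted with their lists and not reported here by name. No test, sex comparison or batch could be assessed with 1 library per sex.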

Additional observations from a re-analysis of the deposited data

Results flagged for a closer look

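The cyclin gene *Ccnd2* stood on opposite sides of the cycling *Lef1*-zero level in the 2 libraries. Its ratio was 0.826 (0.681 to 0.994) in the male cells, from 122 UMIs, and 1.47 (1.20 to 1.78) in the female cells, from 116 UMIs. Without the marked barcodes the ratios were 0.785 (0.603 to 1.01) and 1.12 (0.788 to 1.55), and both intervals held 1. The difference between the libraries was not tested, and sex and library cannot be told apart.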

How the results depend on the processing

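No paired analysis was possible because each sex has 1 library and no result comes from a test. Removing the marked barcodes left 45 male and 14 female cells, with 3.92% and 1.57% of *Lef1*-positive cells cycling, 15 genes at least 2-fold higher (14 shared with the 39), 5 lower (1 shared with the 7) and 7 above both classes. A cycling sum of at least 8 gave 4.10% of male *Lef1*-positive and 18.7% and 12.8% of male and female *Lef1*-zero cells cycling, and 3 genes above both. Requiring 2 *Lef1* UMIs left 18 and 13 cells, 2.49% of male cells, 65 genes higher, 27 lower and 14 above both. Between 10000 and 30000 UMIs there were 41 male cells, 4.30% of male *Lef1*-positive and 31.7% and 28.7% of *Lef1*-zero cells cycling, 67 genes higher, 24 lower and 7 above both. Thinning left 13 and 5 cells, with 1.78% and 0.813% of *Lef1*-positive and 16.9% and 11.8% of *Lef1*-zero cells cycling. Genes above both classes numbered 0 with *Sox2* required or the median gene set to a ratio of 1, and 4 with the mean CPM of single cells. A minimum of 100 CPM gave 7 higher, 2 lower and 0 above both, and no minimum 227, 83 and 63. Of the alternatives chosen after seeing the data, the filters of the methods gave 21.5% of male *Lef1*-zero cells cycling, and the limits of the rule on comparison cells gave 3 genes lower. *Dcn* was then at ratios of 1.55 and 2.64. Without marked barcodes the female cells held 0 *Dcn* UMIs, and 17.8 is only the upper bound that 3 counts would give, with no direction. The causes were not tested. In each setting that gave both shares, the *Lef1*-positive share stayed below the *Lef1*-zero share in both libraries. The 27 female cells limit what could be seen.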
